A study of Mus musculus with 14 samples.

Results

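The Zscan4 cluster is the group of closely similar genes Zscan4a, Zscan4b, Zscan4c, Zscan4d, Zscan4e and Zscan4f on mouse chromosome 7. They were chosen by gene name, as the 6 rows of the count table named Zscan4 with a letter from a to f, out of 56923 rows. The naming rule used no measured value, but earlier results of these data were known when it was set. RNA-seq counts of 2-cell embryos of ICR mice were available in 14 libraries from 7 conditions, with 2 libraries per condition and 5 pooled embryos per library. The study asked how lactate, and the lactylation of histone H3 at lysine 18, affects genome activation in these embryos.

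In all G&N conditions the embryos were cultured in mKSOM from 24 h post-hCG with 5 µM Gne140, which inhibits both lactate dehydrogenases LDHA and LDHB, and with 50 µM NMN, a precursor of NAD+. The G&N medium held 10 mM lactate, and the G&N-L medium held none. Both media were sampled at the early 2-cell stage, at 30 h post-hCG, and at the late 2-cell stage, at 54 h. In the G&N-L + Lac-CoA group, zygotes were injected with 1 mM lactyl-CoA, the substrate of histone lactylation, before culture without lactate up to the late 2-cell stage. The H3K18R zygotes received, by injection at 14 h post-hCG, mRNAs of the histone variants H3.1, H3.2 and H3.3 with lysine 18 turned into arginine. The methods describe a control injected with unmodified H3 mRNAs, and the label of the control libraries says WT alone. Both were late 2-cell embryos for which the labels name no inhibitor, and they still held their own H3. Reads of H3c1, which encodes H3.1, numbered 43643 and 83390 in H3K18R, 4 and 3 in the libraries labelled WT and at most 66 in each of the other 10. The libraries labelled WT thus held no excess of H3c1 reads that would mark an injected H3.1 mRNA, and whether they were injected could not be settled from the counts. The sample titles gave the groups, because the treatment label of the early G&N libraries names Gne140 alone, that of the early G&N-L libraries does not mention lactate, that of the Lac-CoA libraries says CoA, and the count columns of the H3K18R libraries carry the name K18A.

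Zscan4 proteins carry a SCAN domain and zinc fingers. In the mouse embryo the genes are known for a short burst of transcription at the 2-cell stage, and in embryonic stem cells for the same burst in the rare cells that resemble 2-cell embryos. They have been linked there to telomere lengthening and to loss of DNA methylation, and the homeodomain factor DUX, together with DPPA2 and DPPA4, is known to switch them on.

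The 6 genes lay on chromosome 7 of GRCm39, the genome called mm39 by the authors, between 10528169 and 11136668, a span of 0.608 Mb. Zscan4a (ENSMUSG00000110097.2, 10528169 to 10532984), Zscan4b (ENSMUSG00000095339.3, 10633618 to 10638977), Zscan4d (ENSMUSG00000090714.11, 10895301 to 10900111) and Zscan4e (ENSMUSG00000095936.4, 11039241 to 11044609) lay on the minus strand. Zscan4c (ENSMUSG00000054272.7, 10739648 to 10744474) and Zscan4f (ENSMUSG00000070828.11, 11131842 to 11136668) lay on the plus strand. Each had 4 exons in its reference transcript. The GENCODE M39 annotation lists Zscan4b to Zscan4f as protein-coding, with 505 or 506 codons, and Zscan4a as a transcribed pseudogene. The rows Zscan4-ps1, Zscan4-ps2 and Zscan4-ps3, whose names mark pseudogenes, lay among and beside them (ps1 from 10799066 to 10803652, ps2 from 11248193 to 11253038, ps3 from 11343212 to 11348039) and are listed there as protein-coding with 506 codons.

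The members resemble each other also upstream of their start sites, where a set of genes that rise together can be read side by side. All 6 carried the letters TATAA once in the 200 bases before the annotated start of the reference transcript, at 54 bases before it in Zscan4a, Zscan4c and Zscan4d and at 31 bases before it in Zscan4b, Zscan4e and Zscan4f. The sequences below run from 150 bases before TATAA to 15 bases after it, 5′ to 3′ on the strand of the gene, with TATAA and every AATCA or its reverse complement TGATT in capitals. AATCA forms part of the site known for DUX. Zscan4d is shown as the member with the highest level, Zscan4a as the most divergent member, and Zscan4b and Zscan4f as the representatives of the pairs Zscan4b with Zscan4e and Zscan4c with Zscan4f.
Zscan4d, chr7:10900121-10900290, minus strand: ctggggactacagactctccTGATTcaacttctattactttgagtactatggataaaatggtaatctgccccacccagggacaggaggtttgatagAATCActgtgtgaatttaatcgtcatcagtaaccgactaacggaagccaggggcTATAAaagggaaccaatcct
Zscan4a, chr7:10533019-10533188, minus strand: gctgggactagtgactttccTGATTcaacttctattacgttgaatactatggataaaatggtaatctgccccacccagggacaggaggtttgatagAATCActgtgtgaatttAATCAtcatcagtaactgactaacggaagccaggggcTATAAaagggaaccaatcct
Zscan4b, chr7:10638989-10639158, minus strand: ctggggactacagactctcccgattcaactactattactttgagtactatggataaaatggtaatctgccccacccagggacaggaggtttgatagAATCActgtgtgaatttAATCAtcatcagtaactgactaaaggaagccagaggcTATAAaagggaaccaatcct
Zscan4f, chr7:11131661-11131830, plus strand: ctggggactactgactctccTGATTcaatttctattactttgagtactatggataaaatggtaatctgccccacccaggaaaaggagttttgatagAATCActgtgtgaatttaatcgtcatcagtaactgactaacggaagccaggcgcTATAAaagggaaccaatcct
Among the 15 pairs of members these windows of 170 bases differed at 1 to 13 bases. Zscan4b and Zscan4e differed at 1 base, which lies in the TGATT that Zscan4b lacks, and Zscan4c and Zscan4f differed at 1 base as well. An AATCA stood 54 bases before TATAA in all 6 members. A TGATT stood 130 bases before it in all members but Zscan4b, and a further AATCA 37 bases before it in Zscan4a, Zscan4b and Zscan4e. Of 21770 protein-coding promoters of the same 200 bases in GRCm39, 17.6% held TATAA and 28.4% held AATCA on either strand. CCAAT was found in all 6 members and in 32.3% of promoters, and TAAT, which overlaps some of the AATCA matches, in all 6 and in 46.3%. GGATTA, the core of the site known for OBOX proteins, was found in none of the 6 and in 5.48% of promoters. These matches describe the letters in a window and are not binding sites.

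The same resemblance limits what a read can tell. The reference transcripts of the members were 90.0% to 99.7% identical over their aligned bases, the extremes being Zscan4d with Zscan4e and Zscan4b with Zscan4e. Gaps left out of this identity held 571 to 733 bases between Zscan4b or Zscan4e and Zscan4a, Zscan4c, Zscan4d or Zscan4f. In the other pairs they held 5 to 88 bases. Of the stretches of 100 bases within its exons, 72.5% occurred only once in the genome for Zscan4d, 57.4% for Zscan4a, 28.8% for Zscan4c, 16.1% for Zscan4b, 15.5% for Zscan4e and 5.34% for Zscan4f. The read length and the treatment of reads that map to several places were not given in the sources used here. Counts of single members, those of Zscan4f, Zscan4e and Zscan4b most of all, are therefore uncertain as to which copy gave the reads, and the counts of all members are also uncertain against the 3 rows named pseudogenes.

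**Figure D1:**
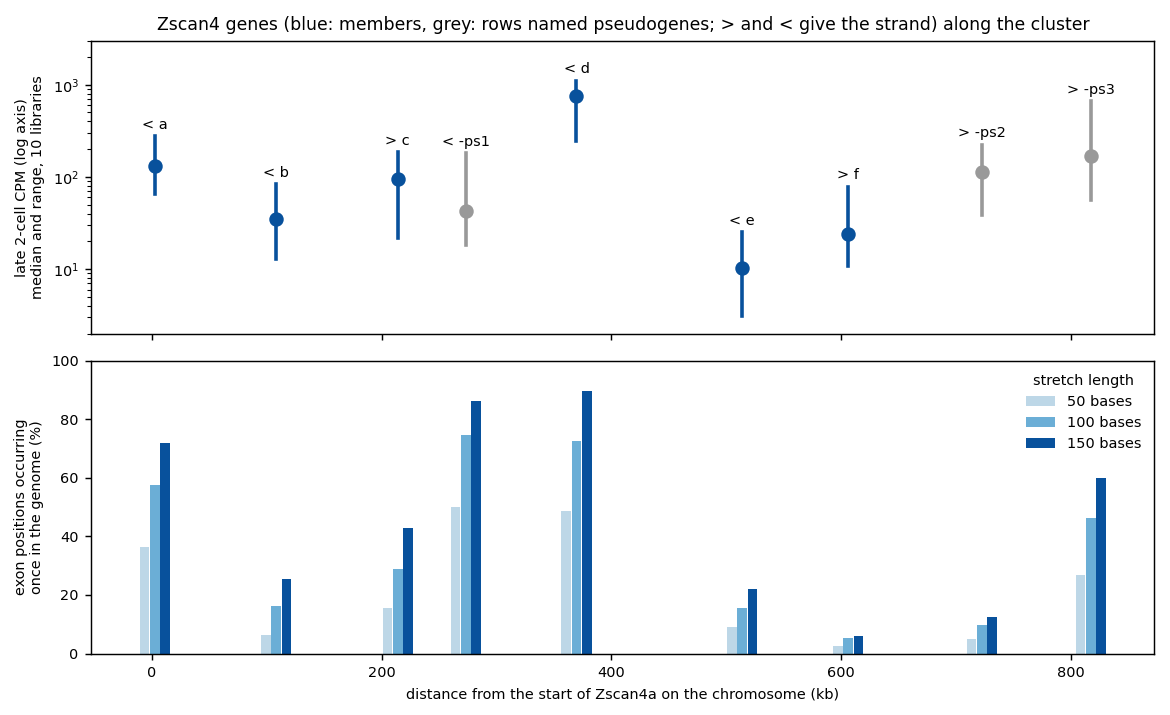
The upper panel plots the late 2-cell level of each Zscan4 row in CPM, on a log axis, as the median (point) and range (line) over 10 libraries, against its distance along the cluster in kb. The lower panel plots the share of exon positions whose stretch of 50, 100 or 150 bases occurs once in the genome; Zscan4d has both the highest level and, among the 6 members, the highest share.

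Levels are given as CPM, counts scaled to the library size with edgeR's TMM factors over all 14 libraries, with the SD over n = 2 libraries. They are relative to the other RNA of a library and are not amounts per embryo. The 14 libraries held 20350427 to 61275465 counts each. Where a gene had no count, up to 3 counts remain possible, or 0.0588 to 0.143 CPM, a limit for counting error only, because amplified reads are not independent molecules. Nothing states that the libraries of a condition came from separate matings, so p-values measure the spread between these libraries.

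Zscan4d was the most abundant member in all 14 libraries. It held 55.1% to 83.4% of the counts of the 6 members, and its level in the 10 late libraries ran from 243 to 1107 CPM with a median of 747 CPM. Zscan4a followed with a late median of 131 CPM, Zscan4c with 94.6 CPM, Zscan4b with 35.0 CPM, Zscan4f with 23.8 CPM and Zscan4e with 10.4 CPM. The order was the same per length of the reference transcript, where the late median level was 329 CPM per kb for Zscan4d, 57.5 for Zscan4a, 41.6 for Zscan4c, 12.4 for Zscan4b, 10.6 for Zscan4f and 3.82 for Zscan4e. Divided instead by the number of exon positions that are unique at 100 bases, the late median was 549 CPM per kb for Zscan4d, 238 for Zscan4f, 175 for Zscan4c, 121 for Zscan4a, 89.5 for Zscan4b and 28.5 for Zscan4e. Zscan4d stayed highest and Zscan4e lowest on this scale, while Zscan4f moved from the fifth place to the second.

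The cluster summed over its 6 members was almost silent in early 2-cell embryos and abundant in all late ones. The sum was 38.3 and 1.48 CPM in early G&N replicates 1 and 2, and 56.1 and 10.7 CPM in early G&N-L. It reached 966 and 1105 CPM in late G&N, 1136 and 1524 CPM in late G&N-L, and 1753 and 1098 CPM in G&N-L + Lac-CoA. In the remaining groups it was 909 and 859 CPM for H3K18R and 753 and 442 CPM for WT. The order of the means was therefore G&N-L + Lac-CoA (1425 ± 463 CPM), G&N-L (1330 ± 275), G&N (1035 ± 98.2), H3K18R (884 ± 35.4), WT (597 ± 220), early G&N-L (33.4 ± 32.1) and early G&N (19.9 ± 26.0). The libraries of G&N-L + Lac-CoA and G&N-L overlapped, and so did those of both early groups. Those of G&N-L + Lac-CoA also overlapped those of G&N, which is not next to it in the order. The other neighbours in this order did not overlap, but with 2 libraries against 2 an exact permutation test cannot give a two-sided p below 0.333.

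**Figure D2:**
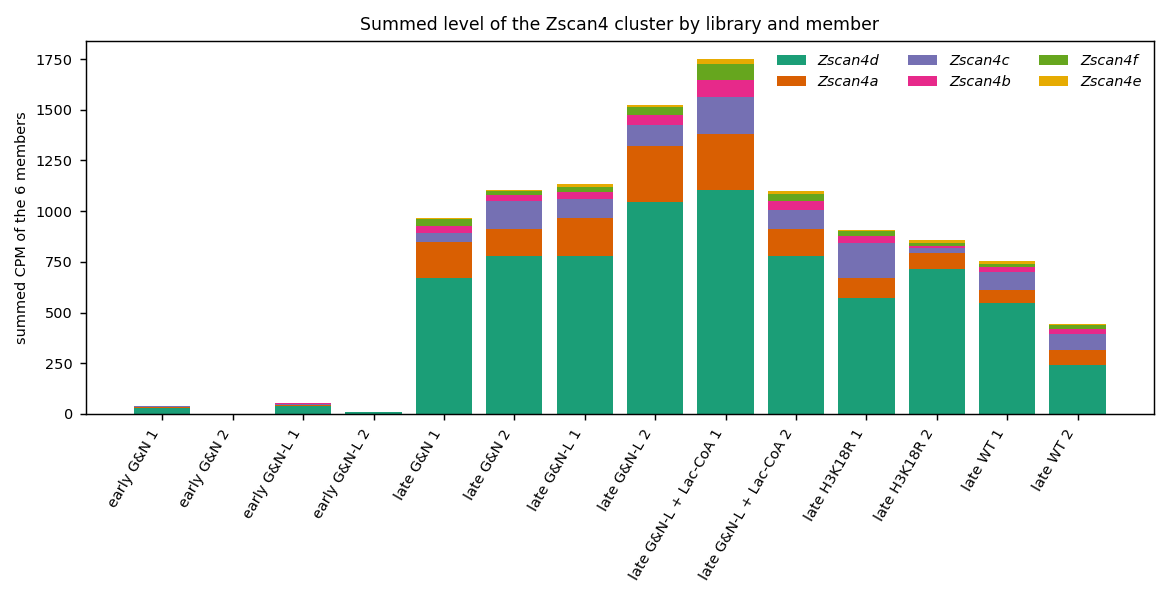
Stacked bars give the summed CPM of the 6 Zscan4 members in each of the 14 libraries, divided by member, on a linear axis from 0. Every late library lies between 442 and 1753 CPM, every early library at or below 56.1 CPM, and Zscan4d forms the largest share throughout.

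From the early to the late 2-cell stage all 6 members rose. In the 8 libraries of both media, with the medium as a term, each passed an adjusted p of 0.05 by edgeR's quasi-likelihood test (6 of 6 higher, against 13.6% of the 22287 genes tested). The fold changes had a median of 5.53 on the log2 scale, from 3.90 to 6.57, beside a median of 0.12 over all genes. In all 6, every late library of these media lay above every early one, as in 18.7% of the genes tested. The mitochondrial share of counts moved with the stage, from 2.17% to 3.85% in the early libraries and from 6.0% to 6.84% in the late ones of these media, and its part in the result was not tested.

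Zscan4a had 94 and 19 counts in early G&N (1.84 and 0.433 CPM) and 178 and 35 in early G&N-L (4.45 and 1.59 CPM). Its late levels were 178 and 132 CPM in G&N and 186 and 275 CPM in G&N-L. Its log2 fold change between stages was 6.57 (SE 0.523, adjusted p = 5.31e-05), the largest of the 6 and the one with the narrowest 95% interval, whose upper end was 7.75 and lower end 5.4.

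Zscan4f rose by 5.64 on the log2 scale (SE 0.712, adjusted p = 0.000574). It had 24 and 3 counts in early G&N and 60 and 13 in early G&N-L, and reached 35.6 and 17.6 CPM in late G&N and 24.8 and 37.9 CPM in late G&N-L. The late libraries of both media overlapped, and the lowest of them was above the highest early library, at 1.5 CPM.

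Zscan4d, the main source of counts, rose by 5.33 (SE 0.928, adjusted p = 0.00315). It was already the leading member at the early stage, with 30.6 and 0.820 CPM in G&N and 41.4 and 7.94 CPM in G&N-L. Late levels were 672 and 779 CPM in G&N and 780 and 1045 CPM in G&N-L, so that the early libraries differed among themselves far more than the late ones.

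Zscan4c rose by 5.42 (SE 1.05, adjusted p = 0.00542), from 4.75 and 0.0684 CPM in early G&N and 3.40 and 0.272 CPM in early G&N-L. In late embryos it measured 44.1 and 138 CPM in G&N and 92.5 and 104 CPM in G&N-L. Its replicates of late G&N differed more than those of late G&N-L, which lie between them.

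Zscan4b rose by 6.09 (SE 1.20, adjusted p = 0.00591). In early embryos it had 14 and 0 counts in G&N and 119 and 1 in G&N-L. In late embryos its levels were close together, at 30.6 and 32.5 CPM in G&N and 37.4 and 51.7 CPM in G&N-L.

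Zscan4e, the member with the lowest level, rose least, by 3.90 (SE 0.823, adjusted p = 0.00815). It had 19 and 4 counts in early G&N, 95 and 5 in early G&N-L, and late levels of 5.71 and 6.37 CPM in G&N and 15.6 and 10.1 CPM in G&N-L. The highest early library, at 2.37 CPM, lay below all of these late ones.

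**Figure D3:**
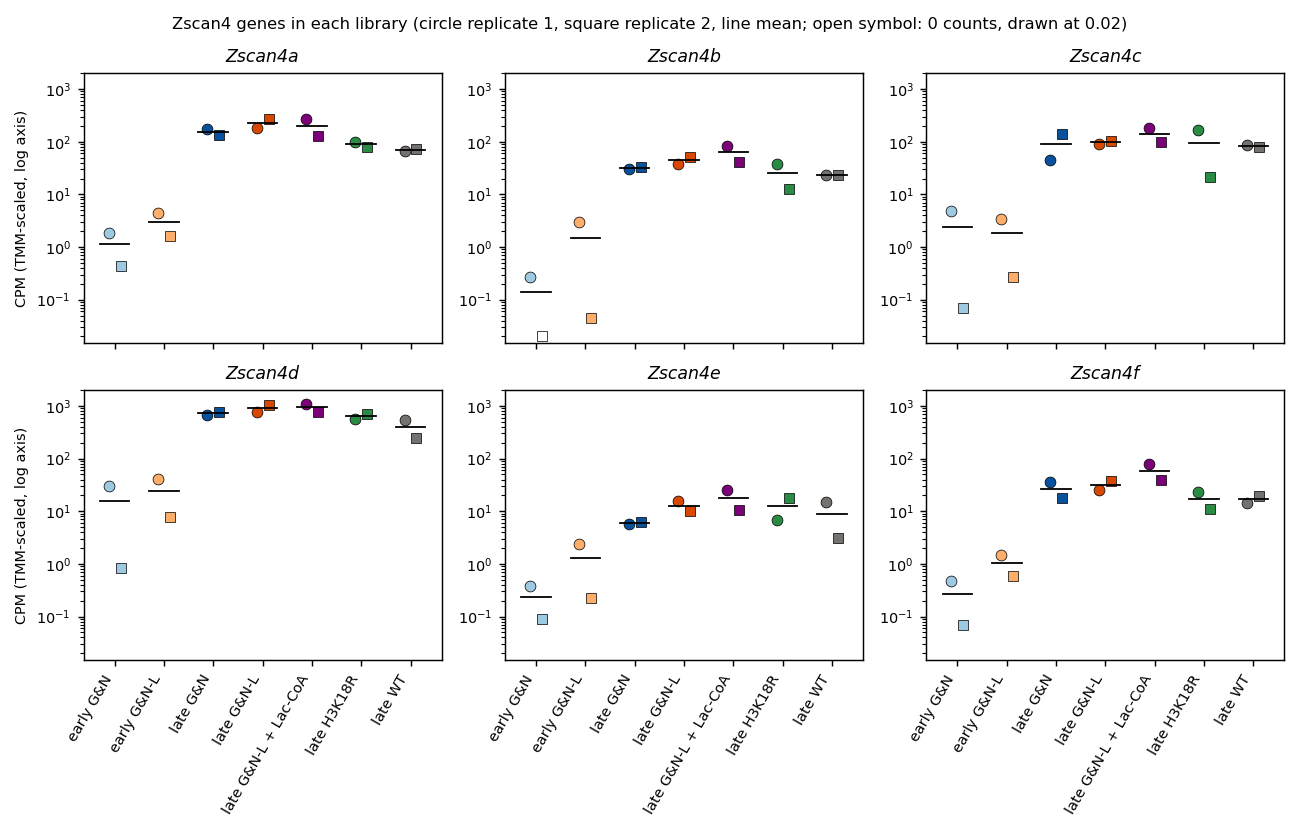
Each panel plots the CPM of a Zscan4 member, on a log axis, in the 14 libraries of the 7 conditions; circles are replicate 1, squares replicate 2, lines the mean, and the open square at the lower edge of the Zscan4b panel is a library with 0 counts. In each panel the 4 early libraries lie below the 10 late ones, and in both early media replicate 1 lies above replicate 2.

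Taken medium by medium, fewer members passed. In G&N, Zscan4a (log2 fold change 7.05, adjusted p = 0.00906), Zscan4b (7.76, 0.024) and Zscan4f (6.58, 0.0202) passed an adjusted p of 0.05 by edgeR's test, 3 of 6 against 8.18% of all genes. Zscan4c (5.25), Zscan4d (5.55) and Zscan4e (4.66) did not, with adjusted p from 0.0512 to 0.0801. In G&N-L, Zscan4a (6.17, adjusted p = 0.00779), Zscan4f (4.82, 0.0147), Zscan4d (5.16, 0.0238) and Zscan4c (5.63, 0.0326) passed, 4 of 6 against 5.97%. The criterion drawn in the study's volcano plots, which takes genes with an unadjusted p below 0.05 and a change of more than 0.5 on the log2 scale, was met by all 6 in G&N, against 19.8% of genes, and by all 6 in G&N-L, against 19%. With DESeq2 in place of edgeR, all 6 passed the adjusted threshold in each medium, beside 5959 of 19443 genes in G&N and 5218 of 18604 in G&N-L, counted in both directions. Leaving out a library moved the calls of all genes as well. Without late G&N replicate 1 the count in G&N was 0 of 6, beside 220 of 22446 genes, and without late replicate 2 it was 1 of 6, beside 283 of 22246. Without early replicate 1 it was 6 of 6, beside 2446 of 22350 genes, and without early replicate 2 it was 5 of 6, beside 2237 of 23092. In G&N-L it was 1 of 6 without either late library, beside 335 of 21201 and 678 of 21336 genes, and stood between 1 and 6 over all 4 libraries left out in turn.

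At the early stage replicate 1 exceeded replicate 2 for every member in both media. The sum of the members was 25.8 times higher in replicate 1 of early G&N (1951 against 65 counts) and 5.26 times higher in replicate 1 of early G&N-L (2244 against 235 counts). Among the genes with at least 10 counts in both libraries, 11 of 14589 had a higher ratio than the cluster in G&N, and 132 of 13296 in G&N-L. This filter removes genes that are near 0 in replicate 2, which could have the largest ratios. In G&N replicate 2 only Zscan4a (19 counts) and Zscan4d (36) of the members would pass it. Replicates 1 and 2 also differed in genes detected, with 22647 and 18773 in G&N and 19837 and 18695 in G&N-L. The summed level of 19 other genes specific to 2-cell embryos had a ratio of 0.740 and 1.14 in the same pairs. Most of that sum was Tcstv1, with 364 to 638 CPM of 569 to 966 CPM in the early libraries. Tcstv1 did not rise between the stages (log2 fold change -0.04, adjusted p = 0.949, edgeR). Zfp352 and Spz1, which rose, had 2.86 to 21.6 CPM and 0.635 to 2.45 CPM there. The ratio of the sum therefore says little about the genes of this list that rose. The stage ratio of the summed cluster was 52.1 in G&N and 39.9 in G&N-L, and without replicate 1 of the early group it was 699 and 125. In early G&N replicate 2, with 65 counts for the whole cluster, Zscan4d made up 55.4% (95% Wilson interval 43.3% to 66.8%) and Zscan4a 29.2% (19.6% to 41.2%), and Zscan4b, at 0 of 65 counts, had an upper limit of 5.58% by the same method.

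Leaving lactate out of the medium asks whether the cluster depends on lactate. In late embryos all 6 members were higher without lactate, by a median of 0.46 on the log2 scale, from 0.18 to 1.14, and none of these differences passed. At an adjusted p of 0.05 edgeR called 0 of 6 members, as it called 0% of the 19481 genes tested, and 0 of 6 had an unadjusted p under 0.05, against 2332 of all genes. DESeq2 called 0 of the 6 as well, and 916 of all genes. At the volcano-plot criterion the count was 0 of 6, against 11.9%. The intervals bound the change: for Zscan4d (725 ± 75.3 CPM with lactate and 913 ± 188 CPM without) the log2 fold change was 0.38, with a 95% interval from -0.12 to 0.88. For Zscan4a (155 ± 32.4 and 230 ± 63.4 CPM) it was 0.61, from -0.12 to 1.34, and for Zscan4e (6.04 ± 0.469 and 12.8 ± 3.86 CPM) it was 1.14, from -0.13 to 2.41. A fall of the relative level of Zscan4d by more than 0.12 on the log2 scale thus lay outside the interval, and a fall of Zscan4c by up to 1.08 lay inside it. The paper reports less newly made RNA in late embryos without lactate, and amounts per embryo were not measured here. Without late G&N replicate 1 the change of Zscan4c was -0.40, and that of Zscan4f was -0.10 without late G&N replicate 2 and -0.05 without late G&N-L replicate 2.

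In early embryos 5 members were higher and Zscan4c was lower without lactate, with a median of 1.84 and wide intervals, such as -4.89 to 4.46 for Zscan4c. None passed. EdgeR called 0 of 6, against 0% of 17343 genes, and 0 of 6 members and 784 genes had an unadjusted p under 0.05. DESeq2 called 0 of 6, beside 37 of 17343 genes, and the volcano-plot criterion took 0 of 6, against 4.5%. The fold changes of Zscan4b and Zscan4d turned negative without early G&N-L replicate 1, at -1.25 and -0.69. The sum in early replicate 1 of either medium lay above that in replicate 2 of both, so the media overlapped. The change with lactate was also compared between the stages. The interaction was not called for any of the 6 members. By edgeR it was 0 of 6 against 0% of 22287 genes, and 0 of 6 members and 1683 genes had an unadjusted p under 0.05. DESeq2 called 0 of 6, beside 231 of 22287 genes, and 0 of 6 met the volcano-plot criterion, against 7.55%.

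Injection of lactyl-CoA asks whether restoring the substrate of lactylation changes the cluster in embryos without lactate. No injection is described for the G&N-L embryos, so the injection and lactyl-CoA differ together and cannot be told apart. Against G&N-L, Zscan4a was lower by 0.23 and the other members higher by up to 0.87, with a median of 0.44. EdgeR called 0 of 6, against 0% of 19610 genes, and 0 of 6 members and 2609 genes had an unadjusted p under 0.05. DESeq2 called 0 of 6, beside 1183 of 19610 genes. The volcano-plot criterion was met by 0 of 6, against 13.2%. For Zscan4d (943 ± 231 CPM with Lac-CoA) the log2 fold change was 0.00, with an interval from -0.63 to 0.63, and its sign turned with DESeq2's scaling, at -0.01. Zscan4f had the largest change, 0.87 (from -0.26 to 1.99), with 78.7 and 38.8 CPM against 24.8 and 37.9 CPM.

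Against G&N, which received lactate and no injection, all 6 members were higher in G&N-L + Lac-CoA, by a median of 0.91. EdgeR called 0 of 6 at an adjusted p of 0.05, against 0% of 19613 genes. By its test 2 of 6 members and 1670 genes had an unadjusted p under 0.05. DESeq2 called 0 of 6, beside 471 of 19613 genes. The volcano-plot criterion was met by 2 of 6, Zscan4e (log2 fold change 1.67, SE 0.58, adjusted p = 0.5) and Zscan4b (1.08, SE 0.413, adjusted p = 0.546), both higher, against 4.41% of genes higher by this criterion. Zscan4b measured 84.3 and 40.9 CPM with Lac-CoA and 30.6 and 32.5 CPM in G&N, and Zscan4e 25.3 and 10.7 CPM against 5.71 and 6.37 CPM. Replicate 1 with Lac-CoA was the highest of the 14 libraries for Zscan4b, Zscan4c, Zscan4d, Zscan4e and Zscan4f. Without it, the fold changes of these members against G&N-L ran from -0.32 to 0.25, and only that of Zscan4f was above 0. This comparison shares the G&N libraries, and the previous one the Lac-CoA libraries, with the others given here.

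H3K18R against the libraries labelled WT asks about lysine 18 itself, though the presence of H3c1 mRNA differs between them together with the mutation and cannot be told apart from it. The summed cluster stood at 884 ± 35.4 CPM against 597 ± 220 CPM in the libraries labelled WT, a ratio of 1.48, and without WT replicate 2 the ratio was 1.17. Of the members 5 were higher and Zscan4f was lower, by 0.01, with a median of 0.30. EdgeR called 0 of 6, against 0.00565% of 17704 genes, which is 1 gene, H3c1. By its test 0 of 6 members and 1141 genes had an unadjusted p under 0.05. DESeq2 called 0 of 6, beside 118 of 17704 genes, and 0 of 6 met the volcano-plot criterion, against 6.44%. Zscan4d had the largest change, 0.71 (from -0.38 to 1.80), with 572 and 716 CPM against 547 and 243 CPM. Zscan4c and Zscan4b were split within H3K18R, at 170 and 21.6 CPM and at 37.5 and 12.9 CPM, around WT levels of 87.3 and 80.6 CPM and of 23.3 and 23.5 CPM, and the sign of both turned to negative without H3K18R replicate 1 (-1.97 and -0.87). Markers of cumulus cells, which surround the oocyte and could be carried over, moved with this comparison: their sum was 23.3 and 29.0 CPM in H3K18R against 5.36 and 9.59 CPM in the libraries labelled WT. Of the 15, 9 and 5 were at 0 counts in the H3K18R libraries and 12 in each WT library. The 5 that passed the filter on low counts all had higher fitted levels in H3K18R, 2 of them past the volcano-plot criterion and 0 past the adjusted threshold. With 12 of 15 at 0 counts in each WT library, a marker could pass the filter through its H3K18R counts alone. The shared direction of the 5 was therefore largely set by the filter and is no result about these markers. Single genes could weigh heavily in such a sum. Tnfaip6 had 0 counts in every early library and 0.562 to 19.1 CPM in the late ones. Cyp19a1 had 13.3 to 22.9 CPM in the early libraries, where the sum was 22.0 to 36.0 CPM. The sum is therefore no measure of cumulus cell content. The part of these markers in the Zscan4 values was not tested.

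WT and G&N are both late embryos, but the G&N embryos were held with Gne140 and NMN, and that treatment and any injection differ together and cannot be told apart. In WT 5 members were lower and Zscan4e higher, by a median of -0.58, beside a median of -0.16 over all genes. EdgeR called 0 of 6 at an adjusted p of 0.05, against 4.62% of 18986 genes. Zscan4a, at 65.9 and 71.4 CPM in WT and 178 and 132 CPM in G&N, was the only member with an unadjusted p under 0.05 by edgeR, which 5312 of all genes had. Its log2 fold change was -1.21 (SE 0.263, adjusted p = 0.0651), and it was the 1 of 6 that met the volcano-plot criterion, against 15.6% of genes lower by it. DESeq2 called 1 of 6, beside 4104 of 18986 genes. The mitochondrial share of counts was 10.6% and 11.2% in WT against 6.77% and 6.84% in G&N, and the cumulus marker sum 5.36 and 9.59 CPM against 14.7 and 29.9 CPM. The part of these differences in the result was not tested.

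**Figure D4:**
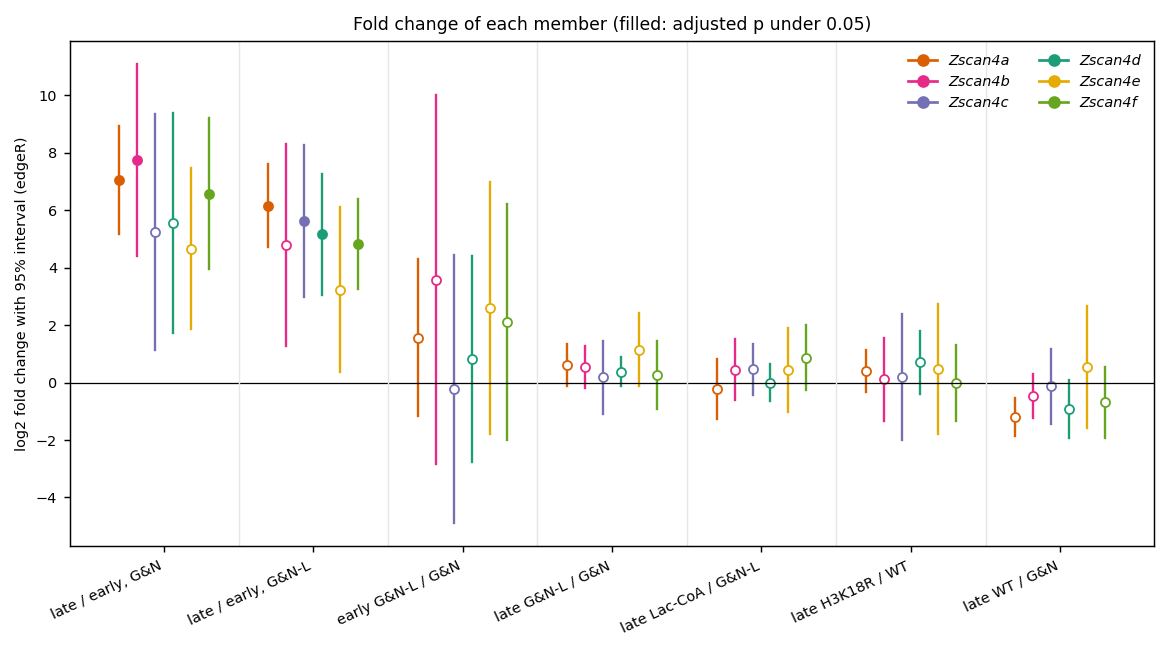
Points give the log2 fold change of each Zscan4 member in 7 comparisons, named on the x axis as group over control, and lines its 95% interval from edgeR's quasi-likelihood fit; filled points have an adjusted p under 0.05. The filled points, 3 in G&N and 4 in G&N-L, are all in the stage comparisons. Every interval of the stage comparisons lies above 0, the open points included, and in the other 5 comparisons only that of Zscan4a in WT over G&N does not include 0.

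Members did not keep fixed proportions. Over the 14 libraries the Pearson correlation of log2(CPM + 1) between members ran from 0.834 to 0.984 over 15 pairs, which share the step from early to late. Over the 10 late libraries it ran from -0.02 (Zscan4c with Zscan4e) to 0.909 (Zscan4b with Zscan4f), with a median of 0.506. These values describe libraries that share conditions and depth, and pairs of members share reads. The share of Zscan4c in the counts of the 6 members was 18.7% in H3K18R replicate 1 and 2.51% in replicate 2, and that of Zscan4d was 62.9% and 83.4%. Among late libraries Zscan4d had the lowest coefficient of variation, 34.1%, and Zscan4f the highest, 65.4%, while the ratio of the highest to the lowest level was smallest for Zscan4a, at 4.18, with 4.55 for Zscan4d.

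The rows named pseudogenes followed the cluster in part. Between stages, in both media, Zscan4-ps3 rose by 7.26 on the log2 scale (SE 1.03, adjusted p = 0.00107, edgeR) and Zscan4-ps2 by 6.01 (SE 0.504, adjusted p = 6.89e-05). Zscan4-ps1 was higher by 2.87 and did not pass (adjusted p = 0.133), with 4.53, 0, 23.6 and 0.635 CPM in the early libraries. In late embryos Zscan4-ps3 ran from 162 to 664 CPM in the 6 libraries with inhibitor and from 55.6 to 68.4 CPM in the 4 libraries of H3K18R and WT. These sets differ in inhibitor and NMN together. Injection does not divide them in the same way, because the Lac-CoA libraries among the 6 were injected. For the libraries labelled WT it could not be settled. Its log2 fold change in WT against G&N was -2.27 (SE 0.448, adjusted p = 0.056), which did not pass. With the 3 rows added, the order of the group means was unchanged, and the sum was 2271 ± 392 CPM in G&N-L + Lac-CoA and 735 ± 247 CPM in WT.

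Of the known activators of the cluster, 5 were found in the table out of 6 looked for. From the early to the late stage in both media 2 of the 5 rose, against 13.6% of all genes. Dppa4, a nuclear protein that primes 2-cell genes, rose by 3.35 on the log2 scale (SE 0.434, adjusted p = 0.000658, edgeR), and Tbx3, a T-box factor, by 4.0 (SE 0.923, adjusted p = 0.0124). Dppa2, the partner of Dppa4, was at 0.12 (adjusted p = 0.669) and Nelfa, a subunit of the elongation factor NELF, at -0.17 (adjusted p = 0.809). Duxf3, the row for Dux, had 0 to 60 counts per library, and 8 of the 10 late libraries had 0 or 1 count of it. In the early libraries Duxf3 had 32 and 0 counts in G&N and 10 and 1 in G&N-L, so that it was higher in the same early libraries as the Zscan4 members.

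In late embryos with lactate (G&N) Dppa4 measured 215 and 340 CPM. It measured 78.2 and 72.6 CPM without lactate (G&N-L), 175 and 153 CPM after Lac-CoA, 714 and 371 CPM in H3K18R and 664 and 685 CPM in WT. The group with the lowest Dppa4, G&N-L, had the second highest Zscan4 sum, and WT, with the highest mean Dppa4, had the lowest late Zscan4 sum. Without lactate the log2 fold change of Dppa4 in late embryos was -1.82 (SE 0.267, adjusted p = 0.311) and that of Tbx3 was -1.89 (SE 0.585, adjusted p = 0.334), both past the volcano-plot criterion and neither past the adjusted threshold. Dppa2 was at -0.59 (adjusted p = 0.449). Over the 4 activators tested the median was -1.21, against 0.46 over the 6 Zscan4 members and -0.02 over all genes.

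**Figure D5:**
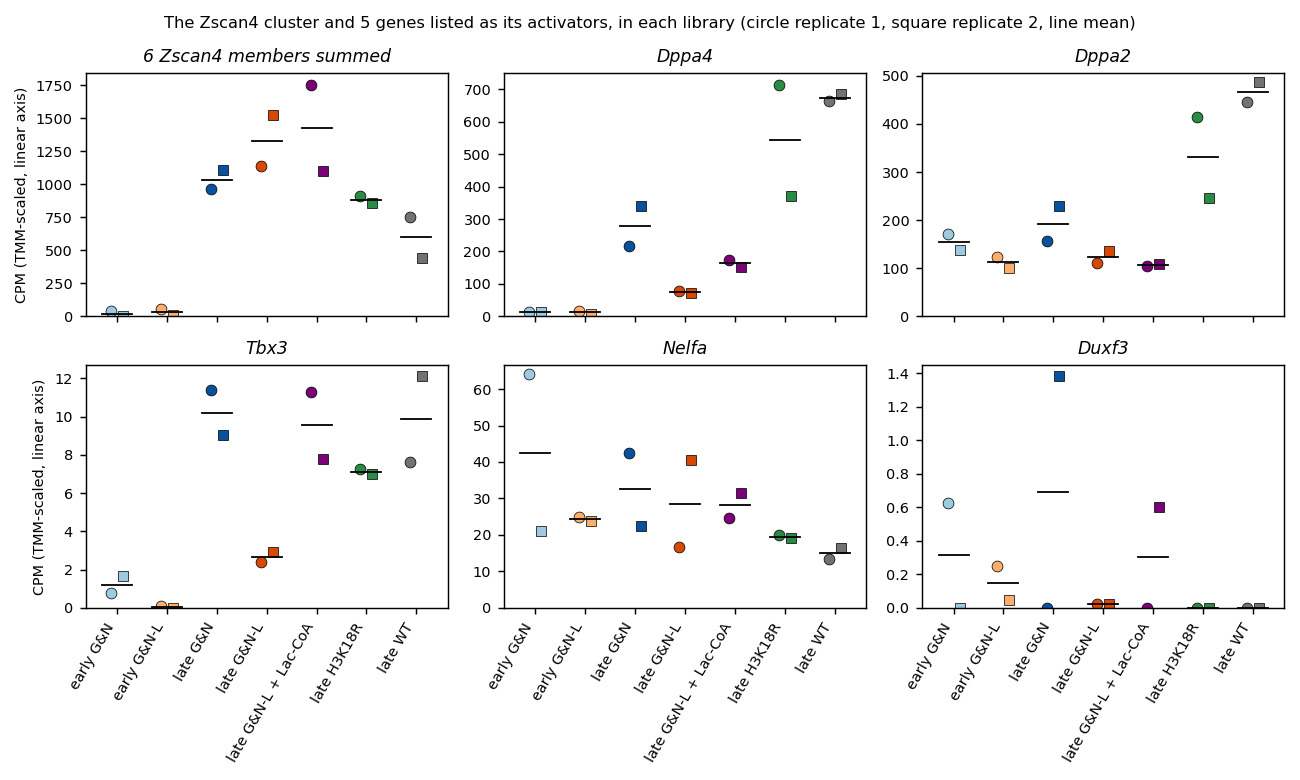
Panels plot the CPM, on linear axes from 0, of the 6 Zscan4 members summed and of Dppa4, Dppa2, Tbx3, Nelfa and Duxf3 in each library; circles are replicate 1, squares replicate 2 and lines the mean. In late embryos Dppa4 and Tbx3 are lowest in G&N-L, where the Zscan4 sum lies between 1136 and 1524 CPM.

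Other genes around the cluster were counted by list. Of 19 other 2-cell genes found, 15 rose and 1 fell between the stages in both media at an adjusted p of 0.05. Over all genes tested, 13.6% rose and 10.9% fell. The median change of the 19 was 5.4. Among them, Spz1 rose by 5.4 (SE 0.471) and Zfp352, a retrotransposon-derived zinc finger gene of the 2-cell stage, by 5.75 (SE 0.541). Without lactate in late embryos, 0 of the 19 passed the adjusted threshold and 7 met the volcano-plot criterion, 5 lower, Pramel7, Tdpoz1 and Usp17lb among them, and 2 higher, Tcstv1 and Tcstv3, with a median of -0.27, beside 1487 lower and 824 higher of all 19481 genes. Lac-CoA against G&N-L gave 7 higher and 0 lower of the 19 by that criterion, beside 1352 higher and 1234 lower of all 19610 genes.

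Of 18 repressors of the 2-cell program, 4 rose and 5 fell between the stages, against 13.6% of all genes higher and 10.9% lower. Dnmt1, the maintenance DNA methyltransferase, fell by 2.04 (SE 0.2), Chaf1a, a subunit of the histone chaperone CAF-1, fell by 2.39 (SE 0.355), and Kdm1a, a histone demethylase, fell by 1.48 (SE 0.258). Zfp809 was among those that rose, by 2.98 (SE 0.544). Of 16 telomere genes 0 rose and 3 fell, among them Terf2 by 1.88 and Rad50 by 0.76 on the log2 scale. Of the 4 genes for proteins tied to ZSCAN4, Dnmt1 fell and Uhrf1, Tet2 and Terf2ip did not pass. Of 10 other Zscan genes tested, Zscan5b rose by 2.62 (SE 0.429) and Zscan21 fell by 1.94 (SE 0.42), and the others did not pass. In late G&N-L against G&N, edgeR called 0 genes of each of these lists, as it did of all genes.

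Markers fitted the labelled embryos. All 10 oocyte and embryo markers had counts in all 14 libraries. Their summed level was 10726 to 13190 CPM in early libraries, 5401 to 7661 CPM in late libraries with inhibitor and 2400 to 4135 CPM in H3K18R and WT. Between stages 2 of the 10 rose and 5 fell, against 13.6% of all genes higher and 10.9% lower. The 15 markers of cumulus cells summed to 22.0 to 36.0 CPM in early libraries and 13.7 to 29.9 CPM in late libraries with inhibitor, beside the values given above for H3K18R and WT, with 5 to 12 of them at 0 counts per library. Of 9 tested between stages, Tnfaip6 rose and Cyp19a1 and Has2 fell, beside the same shares of all genes. In these bulk libraries, more cells with Zscan4 RNA and more Zscan4 RNA per cell cannot be told apart.

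Finally, the genes whose level ran most like the summed cluster over the 14 libraries were Zfat (Pearson r of log2(CPM + 1) 0.988), Gm21083 (0.975), Upp1 (0.969), Ppp1r8 (0.969) and B020031M17Rik (0.969), of 15550 genes with a mean of at least 1 CPM. These libraries share the step between the stages, and 356 genes (2.29%) reached 0.9. Over the 10 late libraries the same genes had r of 0.732, 0.356, 0.225, 0.486 and 0.722. Zfat, a zinc finger gene on chromosome 15, followed the early replicates too, with 7.71 and 0.706 CPM in G&N and 7.55 and 2.31 CPM in G&N-L, and reached 32.5 to 76.8 CPM in late embryos. B020031M17Rik also belongs to the list of 2-cell genes.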

How the data were processed

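The authors deposited raw counts of 56923 genes in 14 libraries, made with FastQC, Trim Galore, HISAT2 (alignment to mm39) and featureCounts. The options for strand and for reads that map to several places, the read length and the annotation release were not given in the sources used here. The methods name 3 replicates per group, of which 2 were analysed here.

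The deposited counts were tested with edgeR 4.0.16 (R 4.3.3; filterByExpr, TMM, quasi-likelihood test, Benjamini-Hochberg adjustment over all genes tested, threshold 0.05), each comparison on its own libraries; stage over both media and the interaction of stage and lactate used 8 libraries. The volcano-plot criterion is given where it is first used. The procedure was tested on simulated data. Alternatives were DESeq2 1.42.0, its size factors, library totals, a single fit of all 14 libraries, no low-count filter, a minimum of 10 counts throughout, a replicate block and leaving out each library. Intervals of shares are 95% Wilson intervals.

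Positions, identity, unique stretches of 50, 100 and 150 bases and upstream sequence came from GRCm39 and GENCODE M39, a release that need not be the one used for counting. The text names the 6 members, the 3 rows named pseudogenes, at most 5 genes per list by smallest p in the stage or late lactate comparison, and the 5 genes most like the summed cluster. The members and lists were chosen with earlier results of these data known. Replicates differed beyond counting noise in every group (chi-square per degree of freedom 47.8 to 195.0), so each library was counted as 1 sample. The values of 1 listed gene are not reported here.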

Additional observations from a re-analysis of the deposited data

How the results depend on the processing

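All 6 members passed between stages over both media when any of the 8 libraries was left out. Over all genes, in both directions, these fits called from 4526 of 25735 to 4976 of 25855. All 6 also passed under every other setting that tested all 6, among them the replicate block (4899 of 22287 genes) and DESeq2 (7752 of 22287). With at least 10 counts required in every library, 2 were tested and both passed, beside 4415 of 10949 genes. In G&N, where 3 passed, 6 passed with DESeq2 (5959 of 19443 genes), with no filter (5060 of 29321) and with all 14 libraries in one fit (3409 of 25041), and 0 to 6 with a library left out; in G&N-L, where 4 passed, it was 1 to 6. For WT against G&N, where 0 passed, 1 passed with DESeq2 (4104 of 18986 genes), 2 with no filter (3668 of 28129) and 1 with at least 10 counts (2971 of 13033), and for the interaction 1 passed with no filter (361 of 32454). The cause of these changes was not tested. Of 401 fold changes under settings other than leaving out a library, 368 kept their direction and side of the threshold, 22 changed side and 11 changed sign.

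Replicate numbers did not pair the libraries: over 21 pairs of groups, same-numbered deviations had r from -0.04 to 0.04. With the replicate block 4 members passed in G&N (1839 of 19443 genes), 4 in G&N-L (1391 of 18604) and 6 over both media (4899 of 22287). In the other comparisons 0 members passed. Beside them stood 804 of 18986 genes in WT against G&N, 1 of 17704 in H3K18R against WT and 0 genes in the rest. Under the block the sign turned for Zscan4c in early G&N-L against G&N (0.72), H3K18R against WT (-0.46) and WT against G&N (0.072), for Zscan4b in H3K18R against WT (-0.088) and for Zscan4d in Lac-CoA against G&N-L (-0.008). DESeq2 and its size factors also turned Zscan4d there (-0.012 in both) and Zscan4f in H3K18R against WT (0.005 in both), where library totals gave 0.013 and the 10-count filter 0.003.

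Leaving out a library turned signs of members that had not passed, over these log2 ranges. In late G&N-L against G&N these were Zscan4c (-0.40 to 1.24) and Zscan4f (-0.10 to 0.92). In the early stage they were Zscan4b (-1.25 to 8.70), Zscan4c (-2.84 to 4.65) and Zscan4d (-0.69 to 4.89). For Lac-CoA against G&N-L they were Zscan4a (-0.88 to 0.22), Zscan4b (-0.18 to 0.89), Zscan4c (-0.083 to 0.876), Zscan4d (-0.29 to 0.25) and Zscan4e (-0.32 to 0.94), and against G&N Zscan4a (-0.17 to 0.89). For H3K18R against WT they were Zscan4b (-0.87 to 0.68), Zscan4c (-1.97 to 1.02), Zscan4e (-0.39 to 2.02) and Zscan4f (-0.65 to 0.43), and for WT against G&N Zscan4c (-0.71 to 0.96) and Zscan4e (-0.97 to 1.27). For the interaction they were Zscan4b (-8.35 to 1.91), Zscan4c (-4.55 to 3.04), Zscan4d (-4.51 to 1.09) and Zscan4e (-2.64 to 0.96). Ratios of the summed cluster ran from 27.1 to 699.1 (late over early, G&N), 23.7 to 124.8 (G&N-L), 0.536 to 22.5 (early G&N-L over G&N) and 0.825 to 1.32 (Lac-CoA over G&N-L). With 2 libraries per group, and 65 to 235 counts for the whole cluster in replicate 2 of the early groups, early differences between media could not be resolved.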

Other observations

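A few rows inside or beside the cluster are no members, and they were singled out after their values were seen. Between the first and the last member, with all rows named Zscan4 left out, Zscan4-ps1 included, the annotation holds 35 genes. Of these, 32 were in the count table and 15 had at least 10 counts in any library. The highest was Gm18204, a processed pseudogene on the plus strand of chromosome 7 from 10903431 to 10910670, next to Zscan4d. It had 0 to 4.27 CPM in the early libraries. In late embryos it measured 33.6 and 33.1 CPM in G&N, 61.4 and 55.5 CPM in G&N-L and 105.5 and 82.1 CPM in G&N-L + Lac-CoA. H3K18R had 44.4 and 30.4 CPM and WT 42.1 and 44.5 CPM of it. Gm6909 ran from 0 to 1.82 CPM in early and from 3.81 to 24 CPM in late libraries. Zscan4-ps4, which lies outside the span of the members, had 83 counts (3.95 CPM) in H3K18R replicate 1 and 0 counts in the other 13 libraries.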
